A study of Saccharomyces cerevisiae with 4 samples.

Results

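The Rim101 pathway carries the signal of an alkaline environment to the nucleus of the budding yeast Saccharomyces cerevisiae, and 10 of its genes are described here: RIM101, RIM8, RIM9, RIM13, RIM20, RIM21, DFG16, YGR122W, SMP1 and SNF7. They were chosen by name, with earlier results of these data known. Each was found through the open reading frame that names a row of the value table. Together they take up 11 of the table's 6212 rows. RIM8 has 2 rows, YGL045W and YGL046W, because YGL046W is listed as a synonym of RIM8 in the RefSeq gene table. Of the 10 genes, 8 were measured on both arrays of each comparison by at least 1 row. RIM9 and SNF7 had no value on the alkali arrays, and none on the mutant arrays once part of the mutant columns was read 2 rows further down, as described below, so no result is given for them.

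In this pathway the membrane proteins Rim21, Dfg16 and Rim9 act as the sensor at the cell surface. The arrestin-related protein Rim8 links the sensor to the ESCRT machinery, the set of protein complexes that otherwise sorts membrane proteins into endosomes, whose subunit Snf7 recruits the scaffold Rim20 and the calpain-like protease Rim13. Rim13 cuts the C terminus off the zinc finger protein Rim101, which then represses genes such as NRG1 and SMP1, and YGR122W encodes a protein needed for this cleavage. Cleavage is a step on protein, which these arrays do not measure.

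The arrays gave ratios of total RNA between 2 cultures of the strain labelled DBY4741. On 2 arrays, untreated reg1 cells (genotype reg1::KanMX, in which a drug resistance cassette stands in the REG1 gene, which encodes a regulatory subunit of the phosphatase Glc7 in glucose repression) were set against untreated wild-type cells. On 2 other arrays, reg1 cells given 16 mM KOH for 10 min, which took the medium to about pH 8.0, were set against reg1 cells given 16 mM KCl for 10 min, both in YPD rich medium of about pH 5.5 at 28 °C. Both RNA samples of the second comparison thus lacked REG1, and alkali in wild-type cells was not analysed here. The dyes were swapped between experiments 1 and 2 of each comparison.

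REG1 itself had log2 ratios of -1.10 and -0.96 in reg1 over wild type, 2.04-fold lower (limma, adjusted p = 0.0313, and 0.0686 where only the mutant arrays gave the spread), and no value on the alkali arrays. Its sign sets the direction of the mutant ratios, while KOH over KCl is the likely direction of the others, as the array titles and channel order read. No label states that experiments 1 and 2 were separate cultures, so the p-values below cover the spread of these samples alone and that spread may be technical. The arrays agreed less in the mutant comparison (r = 0.591 across 4765 rows) than in the alkali comparison (r = 0.955 across 4584 rows). Ratios are per amount of RNA labelled and hold no transcript level. A change in transcripts per cell thus cannot be told apart from a change in total RNA per cell.

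The mutant columns did not name the same spots as the alkali columns in part of the table. Around each member row, over it and 100 rows on each side, it was counted how many mutant arrays and how many alkali arrays had a value for a row, and these 2 counts were correlated. For RIM101, YGR122W, SMP1 and both rows of RIM8 the correlation was highest with no displacement, at 0.649 to 0.774. For RIM9, RIM13, RIM20, RIM21, DFG16 and SNF7 it was highest with the mutant columns read 2 rows further down, at 0.724 to 0.795 against -0.020 to 0.103 with no displacement. The mutant values of these 6 genes are therefore given from 2 rows further down. Read this way, RIM9 and SNF7 are missing on all 4 arrays. As deposited, the mutant columns hold 0.046 and -0.121 at the name of RIM9, and 1.74 and 1.25 at the name of SNF7 (limma, adjusted p = 0.0115).

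**Figure D1:**
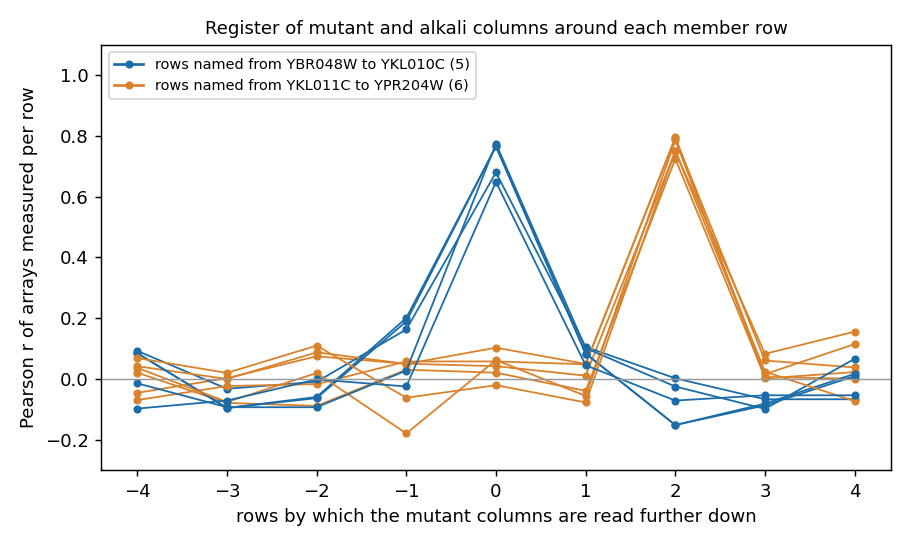
Pearson correlation (vertical axis) between the numbers of mutant and of alkali arrays that measured a row, by the number of rows that the mutant columns are read further down (horizontal axis), with 1 line for each of the 11 member rows and its surrounding rows. The 5 lines of one stretch of the table peak at 0 and the 6 lines of the other at 2, where they reach 0.649 or more.

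After KOH, most measured genes of the pathway had higher ratios in these reg1 cells. RIM101, RIM8, RIM20, DFG16 and SMP1 rose, RIM8 by both of its rows, while RIM21, YGR122W and RIM13 did not pass the test and no member fell. The 9 rows measured on both alkali arrays, of 8 genes, spanned mean log2 ratios from 0.055 to 1.98 with a median of 1.07, against a median of -0.085 over all 4584 rows tested. Of these 9 rows, 6 were called higher (limma on all 4 arrays, Benjamini-Hochberg adjusted p under 0.05 over all rows), where 29.1% of all rows were called higher, 32.7% lower and 61.8% in either direction. Both arrays lay above 0 for 8 of the 9 rows, against 41.5% of all rows. A ratio of 2-fold or more on both arrays was reached by 4 of the 9 rows, those of RIM101, RIM8 and SMP1, against 14.9% of all rows. The number of rows called depends on the arrays and on the spread used. Fewer passed with either alkali array left out, where the YGL045W row of RIM8 was not tested. Such fits take the spread from the mutant arrays alone, here and below. The SD that limma took as typical was then 0.303, against 0.165 from the alkali arrays alone. A lost call may come from this wider spread. Once the arrays were scaled to an equal spread, 3 of 9 rows passed. This scaling also changes the ratios: SMP1 after KOH had 1.02 in place of 1.51, and REG1 in the mutant -1.53 in place of -1.03.

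**Figure D2:**
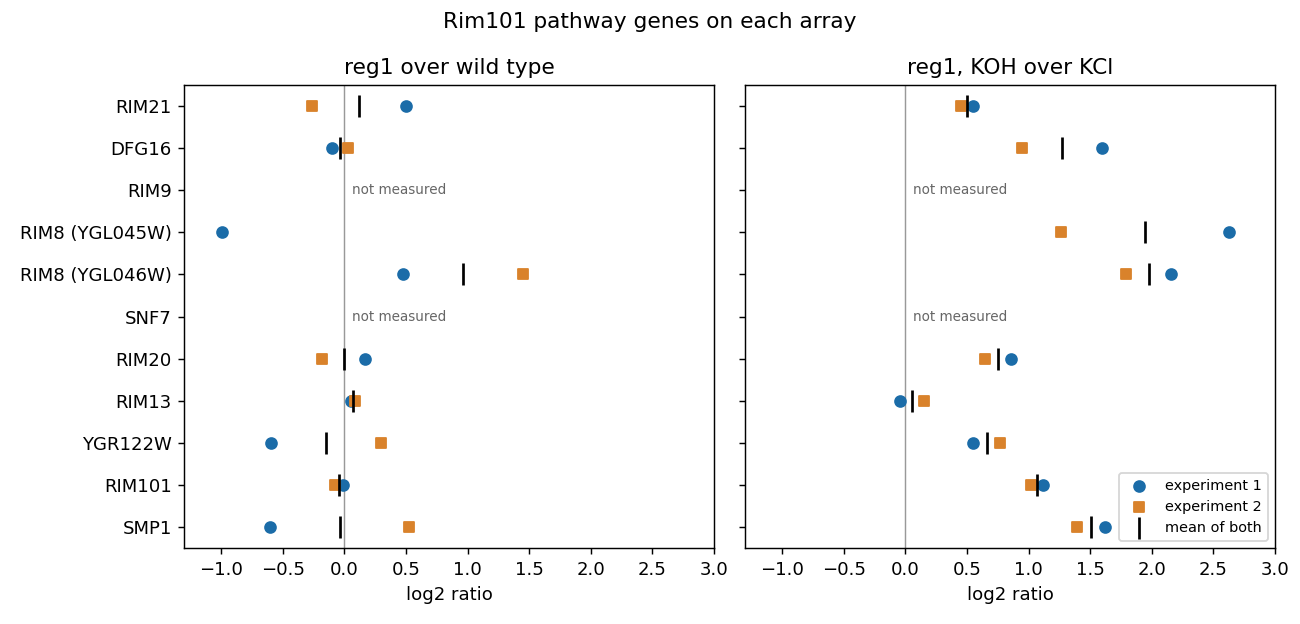
Log2 ratio (horizontal axis) of each pathway gene (vertical axis, from sensor to target) on each array, reg1 over wild type on the left and KOH over KCl on the right, with circles for experiment 1, squares for experiment 2 and bars for the mean where both were measured. On the right every pair except RIM13 lies above 0, and on the left 5 of the 8 pairs lie on both sides of 0.

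Of the sensor genes, DFG16 passed the test after KOH and RIM21 did not. DFG16, which encodes a protein with several membrane spans, had log2 ratios of 1.60 and 0.95 after KOH. Both arrays gave a clear increase, though experiment 1 was the higher by more than in 94.3% of rows, and the mean of 1.28 ± 0.46 (SD, n = 2), 2.42-fold, passed the test (limma, adjusted p = 0.00304). Without experiment 1 the adjusted p was 0.0579. RIM21, the gene of the membrane protein taken to sense pH, had 0.55 and 0.45. These arrays lay close together, and the mean of 0.50 ± 0.07 (SD, n = 2), 1.41-fold, did not pass (limma, adjusted p = 0.0880, 95% interval -0.03 to 1.03). Its estimate of the spread includes the mutant arrays, which differed by 0.76 for this gene. With the spread taken from the alkali arrays alone the adjusted p was 0.0146.

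RIM8 had the highest mean log2 ratios of the pathway after KOH. Its gene product, an arrestin-related adaptor, is ubiquitinated and binds ESCRT proteins, and RIM8 is also known as a gene that Rim101 represses. The row YGL046W had log2 ratios of 2.16 and 1.79, a mean of 1.98 ± 0.26 (SD, n = 2) or 3.93-fold (limma, adjusted p = 0.00172). The row YGL045W had 2.63 and 1.26, a mean of 1.95 ± 0.97 (SD, n = 2) or 3.85-fold (adjusted p = 0.00837). The 2 rows thus had nearly the same mean, with all 4 values above 2-fold, but the arrays of YGL045W lay further apart than those of 99.1% of rows. With arrays scaled to the same spread the YGL046W row had an adjusted p of 0.0575.

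Of the genes of the protease step, RIM20 passed the test, and RIM13 and YGR122W did not. RIM20, whose product is a scaffold with the Bro1 domain that brings the protease to its substrate, had 0.86 and 0.65. Its mean was 0.76 ± 0.15 (SD, n = 2), 1.69-fold, and passed (limma, adjusted p = 0.0101), but with either alkali array left out it did not (0.155 without experiment 1 and 0.0773 without experiment 2), nor did it with arrays scaled to the same spread (0.112). RIM13, the gene of the protease, had -0.04 and 0.15. Its arrays lay on both sides of 0, with a mean of 0.055 ± 0.134 (SD, n = 2), an adjusted p of 0.764 and a 95% interval of -0.31 to 0.42. YGR122W had 0.55 and 0.77, both above 0. Its mean of 0.66 ± 0.16 (SD, n = 2), 1.58-fold, lay just outside the threshold (limma, adjusted p = 0.0540, 95% interval 0.071 to 1.25). It passed with the spread from the alkali arrays alone (0.00873), after centring each array on its median (0.0405) and with the experiment number as a block (0.0192). It did not pass with arrays scaled to the same spread (0.368), nor without experiment 1 (0.190) or experiment 2 (0.311) of the alkali comparison.

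The transcription factor genes at the end of the pathway rose. RIM101 had 1.12 and 1.02, which lay close together, and its mean of 1.07 ± 0.07 (SD, n = 2) was 2.10-fold above KCl (limma, adjusted p = 0.00176). It passed under all 12 alternatives, with adjusted p up to 0.0477. Some of these alternatives are 1 and the same fit for the alkali ratios. They are the spread from the alkali arrays alone and the fits without either mutant array. SMP1, a MADS-box factor gene related to mammalian MEF2 and known as a gene that Rim101 represses, had 1.62 and 1.39. The mean was 1.51 ± 0.16 (SD, n = 2), 2.84-fold (adjusted p = 0.00591). SMP1 did not pass without experiment 1 of the alkali comparison (0.0715) or with arrays scaled to the same spread (0.138).

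By mean log2 ratio after KOH the order was RIM8, SMP1, DFG16, RIM101, RIM20, YGR122W, RIM21 and RIM13. The 95% intervals of all neighbours in this order overlapped. The interval of RIM13, which ended at 0.42, lay below those of RIM101 (from 0.72), DFG16 (from 0.79), SMP1 (from 0.81) and both RIM8 rows (from 1.02 and 1.33), and overlapped those of RIM20, YGR122W and RIM21. These members were not tested against each other. Among all rows tested, the alkali ratio of the YGL046W row of RIM8 was above 94.3% of rows, SMP1 above 90.3%, RIM101 above 84.1% and RIM13 above 56.2%.

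**Figure D3:**
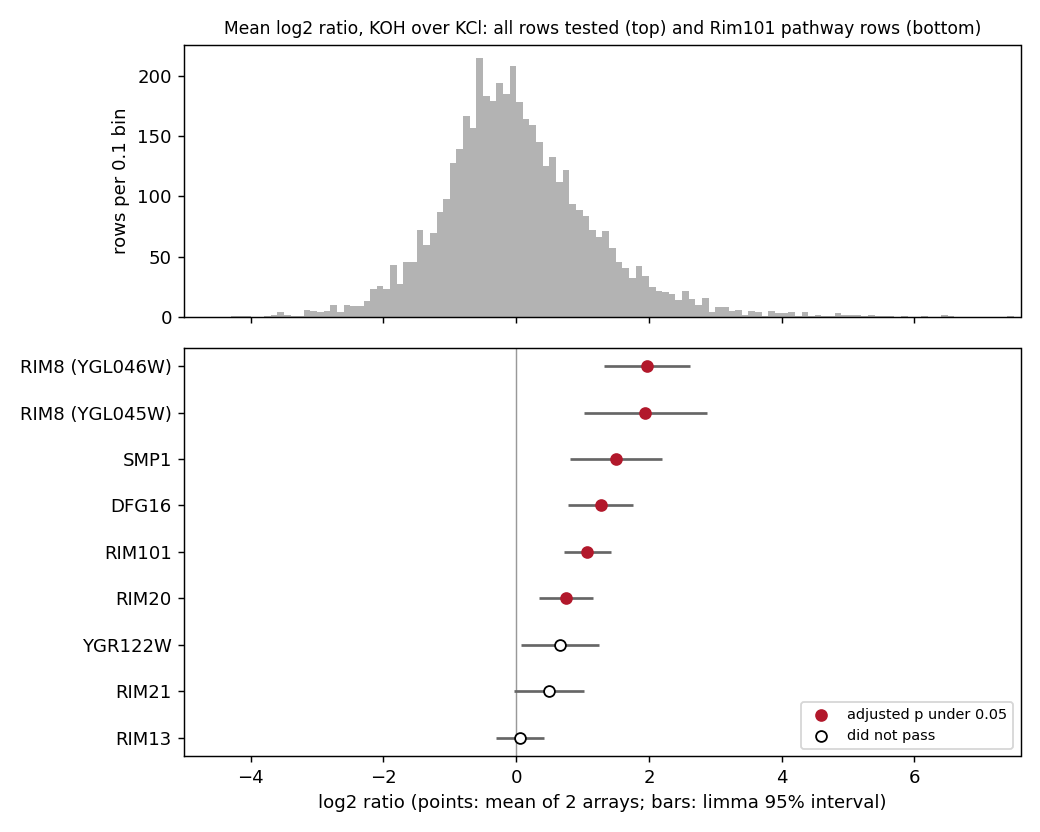
The upper panel shows how many of the 4584 rows tested fall in each 0.1-wide bin of mean log2 ratio, KOH over KCl, and the lower panel the means of the 9 Rim101 pathway rows with limma's 95% intervals, filled where the adjusted p was under 0.05. The 6 filled rows lie between 0.76 and 1.98, and RIM13 lies at 0.055.

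In reg1 against wild type without alkali, no pathway row was called of the 8 that were measured on both arrays (limma), where 7.16% of all 4765 rows were called, 5.20% higher (248 rows) and 1.95% lower (93 rows). After scaling all arrays to the same spread, 363 rows were called higher and 255 lower. At an unadjusted p under 0.05 there was 1 pathway row, the YGL046W row of RIM8, against 25.0% of all rows. The pathway rows had a median of -0.020, against -0.048 over all rows. On 5 of the 8 rows the 2 arrays had opposite signs, so their means are near 0 or smaller than the gap between arrays.

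RIM101 had log2 ratios of -0.011 and -0.078 in the mutant, a mean of -0.044 ± 0.047 (SD, n = 2) with a 95% interval of -0.40 to 0.31. RIM13 had 0.053 and 0.085, with an interval of -0.29 to 0.43. Both pairs of arrays lay closer than those of most rows. DFG16 had -0.098 and 0.031 (interval -0.52 to 0.46) and RIM20 0.168 and -0.180 (interval -0.41 to 0.40). For these 4 genes a measured ratio of 2-fold lay outside the interval. REG1, which is disrupted in the mutant, itself measured only 2.04-fold lower on these arrays. Whether measured ratios fall short of true changes was not tested. The spread behind the mutant intervals includes the alkali arrays, which lay closer together. The SD that limma took as typical was 0.245 for all 4 arrays and 0.303 for the mutant arrays alone, so these intervals may be too narrow.

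The arrays disagreed for other members. SMP1 had -0.61 and 0.53, a gap wider than that of 96.8% of rows, and its 95% interval was -0.73 to 0.65. YGR122W had -0.60 and 0.29, and RIM21 had 0.50 and -0.26. In each of these 3 genes the arrays lay on opposite sides of 0. The intervals of YGR122W (-0.74 to 0.44) and RIM21 (-0.41 to 0.65) stayed within 2-fold, with the same shared spread.

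RIM8 was, with the columns read this way, the member with the largest mutant ratio, and its rows disagreed. The YGL046W row had 0.48 and 1.45, a mean of 0.96 ± 0.69 (SD, n = 2) or 1.95-fold, with a 95% interval of 0.32 to 1.61 (limma, adjusted p = 0.0931). The YGL045W row had -0.99 on experiment 1 and no value on experiment 2, so it was not tested. On experiment 1 the 2 rows of RIM8 thus had opposite signs, whereas on the alkali arrays both were high. The YGL046W row passed without experiment 1 of the mutant comparison (log2 ratio 1.45, adjusted p = 0.0380), with the experiment number as a block (0.0476) and with a dye term (1.1e-04).

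Genes known to lie downstream of Rim101 were read beside the pathway. Nrg1 is a repressor of the sodium pump gene ENA1 and of glucose-repressed genes, and cleaved Rim101 is known to repress NRG1. NRG1 had 1.75 and 1.57 after KOH, a mean of 1.66 ± 0.13 (SD, n = 2) or 3.16-fold (limma, adjusted p = 7.6e-04). In the mutant it had 0.82 and 0.41 (mean 0.62, adjusted p = 0.0953). ENA1 had 7.40 on both alkali arrays, 169-fold (limma, adjusted p = 9.3e-05), and no value on the mutant arrays. Its own spread thus came from the 2 alkali values alone, which were equal. How far its KCl signal lay above background is not known, so the size of this fold is uncertain. ENA2 had 5.54 and 5.38 after KOH, and 0.018 and 0.136 in the mutant (adjusted p = 0.780). Sequences of ENA1 and ENA2 are nearly identical, so each spot may also have bound transcripts of the other gene. ENA5 had no value on any array. In the mutant none of 4 measured rows of this list was called, where 7.16% of all rows were called. All 6 rows measured after KOH, among them both RIM8 rows and SMP1, rose, with a median of 1.96. Of all rows, 29.1% rose. With either alkali array left out, ENA1 and the YGL045W row of RIM8 were not tested, so fewer rows of this list could be called. SMP1 no longer passed without experiment 1. With arrays scaled to the same spread 4 of the 6 rows were called. The genes that Rim101 is known to repress (NRG1, SMP1 and RIM8) and ENA1, which the pathway is known to induce, thus both had higher ratios after KOH.

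The ESCRT genes, which the pathway shares with endosomal sorting, went in both directions after KOH. Of 18 measured rows, 4 rose, 8 fell and 6 did not pass, with a median of -0.42, where 29.1% of all rows rose and 32.7% fell. The increases were those of DOA4, a ubiquitin protease gene (2.44, 5.41-fold), the ESCRT-II gene VPS36 (1.89), BRO1 (1.47) and the ESCRT-0 gene VPS27 (1.00). BRO1 encodes the Bro1-domain protein of endosomal sorting related to Rim20, and its arrays gave 1.57 and 1.36 (limma, adjusted p = 7.3e-04). The 3 largest decreases were in VPS20 (-1.31), the ESCRT-III subunit that starts Snf7 assembly, VPS24 (-0.93), another ESCRT-III subunit, and VPS4 (-0.82), the ATPase that takes ESCRT-III apart. Without experiment 1 of the alkali comparison 4 rows were called, without experiment 2 the number was 5, and with scaled arrays 4. In the mutant none of 19 was called, where 7.16% of all rows were called.

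RIM8 belongs to the family of arrestin-related adaptors. Of 9 measured rows of this family, 2 of them RIM8, 8 rose and 1 fell after KOH, with a median of 1.78, where 29.1% of all rows rose and 32.7% fell. CSR2 had the largest ratio, 3.71 on both arrays (13.1-fold, limma, adjusted p = 1.2e-04), followed by RIM8 and ROG3 (1.97), while ART5 had -0.75 and -0.56 (adjusted p = 0.0124). CSR2 and ROG3 encode adaptors for the ubiquitin ligase Rsp5. With either alkali array left out the YGL045W row of RIM8 was not tested, and fewer rows of the family were called. With arrays scaled to the same spread 6 of the 9 rows were called. In the mutant 2 of 8 rose and 1 fell: CSR2 had 1.34 and 1.20 (adjusted p = 0.00800), ALY2 0.91 and 0.81 (0.0279) and ROG3 -1.06 and -1.32 (0.0277), where 5.20% of all rows rose and 1.95% fell. Without experiment 1 of the mutant comparison neither ALY2 (0.0633) nor ROG3 (0.0655) passed, nor did they without experiment 2 (0.0618 and 0.0993), and then 1 of the family was called. With the spread from the mutant arrays alone ALY2 had an adjusted p of 0.109 (limma). CSR2 lies in the displaced stretch, where the mutant columns as deposited hold values of another row at its name (mean -0.64).

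The kinase cascade of the HOG pathway answers osmotic stress and phosphorylates Smp1. Of its 11 measured genes 6 rose, 2 fell and 3 did not pass after KOH, with a median of 0.52. Over all rows 29.1% rose and 32.7% fell, with 61.8% called in either direction. SKO1, a repressor gene, was highest (1.49), followed by the osmosensor gene SLN1 (1.05) and SSK1 (0.81), while HOG1, the kinase gene, had 0.54 and 0.51 (limma, adjusted p = 0.0486). The phosphorelay gene YPD1 (-0.84) and the osmosensor gene SHO1 (-0.44) fell. Without 1 alkali array 1 or 2 of these genes were called, and with scaled arrays 1. In the mutant none of 11 was called, where 7.16% of all rows were called.

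Of the MADS-box genes, RLM1, a factor of the cell integrity pathway, had 1.08 and 1.47 after KOH (limma, adjusted p = 0.00901), near SMP1, and in the mutant 1.78 and 0.76 (adjusted p = 0.0507). RLM1 lies in the displaced stretch, where the mutant columns as deposited hold values of another row at its name (mean 0.24, limma, adjusted p = 0.554). It passed in the mutant after centring (0.0368), with scaled arrays (0.0494), with a dye term (7.7e-08), with the experiment number as a block (0.0154) and without experiment 2 of the mutant comparison (0.0329). ARG80 did not pass after KOH, and MCM1 had no value. Neither SMP1 nor RLM1 was called without experiment 1 of the alkali comparison or with scaled arrays, and without experiment 2 SMP1 alone was. Several genes named RIM for their role in meiosis are not in the alkaline pathway. RIM15 (1.23) and RIM11 (1.44), both kinase genes, rose after KOH, as did IME4 (1.15) and UME6 (0.76), which makes all 4 measured on both arrays, of which 2 were called without experiment 2 or with scaled arrays. Of all rows, 29.1% rose after KOH. None of 6 was called in the mutant, where 7.16% of all rows were called. Among repressors of ENA1 and glucose-repressed genes, NRG1 rose after KOH while MIG2 (-1.19) and MIG1 (-0.64) fell, and the corepressor genes TUP1 (0.16) and CYC8 (0.42) did not pass. Without experiment 1 or with scaled arrays 1 of these was called. Of all rows, 29.1% rose and 32.7% fell after KOH. In the mutant MIG1 was called of 5, with 1.21 and 1.45 (adjusted p = 0.00802), where 7.16% of all rows were called.

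**Figure D4:**
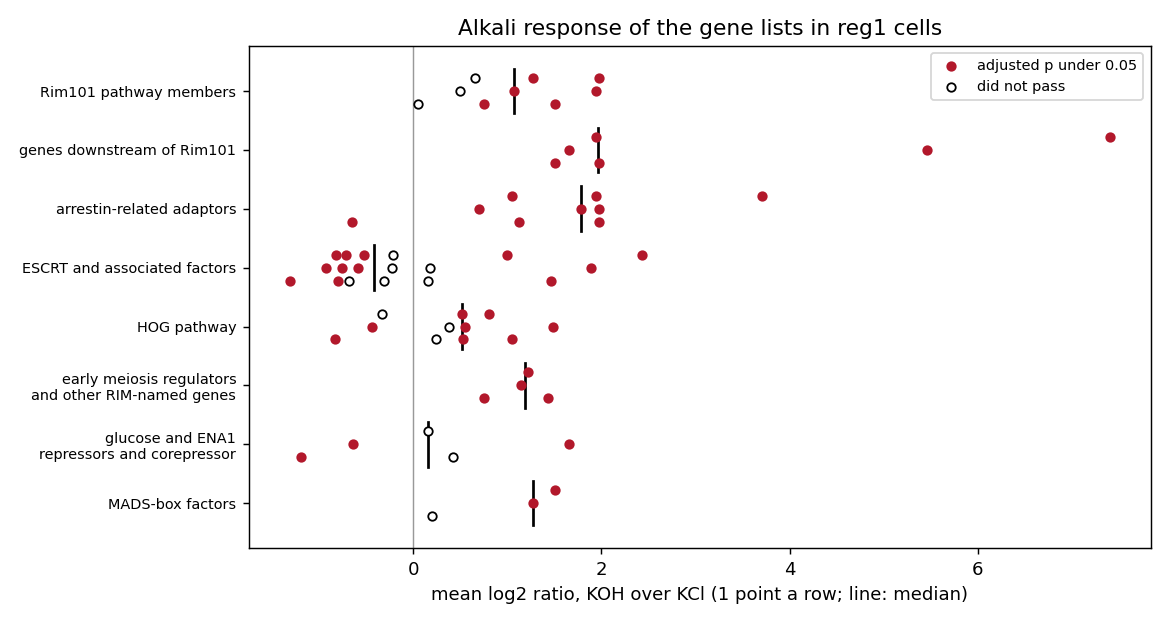
Mean log2 ratio, KOH over KCl (horizontal axis), of each measured row of the 8 gene lists (vertical axis), filled where the adjusted p was under 0.05, with a line at each list's median. The medians are 1.07 for the Rim101 pathway, 1.78 for the arrestin-related adaptors and -0.42 for the ESCRT list, and genes such as RIM8, SMP1, SNF7 and NRG1 belong to more than 1 list.

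The genes most like the 2 pathway rows with the largest alkali means among those measured on all 4 arrays were found by the root mean square difference of log2 ratios over the 4 arrays, among 4314 other rows. Nearest to the YGL046W row of RIM8 were MCO14 (0.234), YSY6 (0.259) and FBP26 (0.312). Nearest to SMP1 were BUD2 (0.162), NAM8 (0.176) and MMM1 (0.217). With 4 arrays this measure says only that the ratios were close.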

How the data were processed

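Log2 ratios of 4 spotted 2-colour arrays were used as the authors deposited them, in 1 table. Per the labels, the authors dropped small spots and those weak in both dyes. How arrays were scanned, background-corrected and normalized is not given in the sources used here, and the log base was taken as 2. Each array measured between 4746 and 5190 rows, and their number limits the precision. Of 6212 rows, 5662 were named by locus tag and 52 by synonym from the RefSeq table of assembly R64.

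Mutant values of the 2794 rows YKL011C to YPR204W were read 2 rows further down, and the 199 rows YAL067C to YBR047W were left out. Each comparison's mean was tested against 0 with limma 3.58.1 (R 4.3.3; lmFit, eBayes), all 4 arrays in 1 fit, over rows measured on both its arrays, with Benjamini-Hochberg adjustment and a threshold of 0.05. The test was tested on simulated data. Members and lists were chosen with earlier results of these data known. Named genes were REG1, ENA1, all members, the 3 largest called genes of each list in each direction and the nearest genes. NRG1, ENA2 and RLM1 in the mutant, and VPS27, TUP1, CYC8, UME6, HOG1 and ARG80 after KOH, were named after their values were seen. Alternatives changed the row reading, spread, centring, scaling, dye, block, filter and arrays used.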

Additional observations from a re-analysis of the deposited data

How the results depend on the processing

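The settings did not all test the same number of rows, so a lower count need not be a lower share. In the mutant 2514 rows were tested with rows YBR048W to YKL010C alone and 4315 with a dye term. With 1 mutant array left out 4358 or 4430 rows were tested. In the main fit 341 of 4765 rows tested were called in the mutant. The count was 211 with mutant rows YBR048W to YKL010C alone, 153 with the spread from the comparison's own arrays, 618 with arrays scaled to the same spread, 678 with a dye term and 153 to 256 with 1 array left out. After KOH 2832 rows were called, 1239 with scaled arrays and 1182 to 3275 with 1 array left out. Of the pathway rows, 1 was called in the mutant with a dye term and with the replicate block (363 rows in all), and 0 to 1 with 1 array left out, in each case the YGL046W row of RIM8, and 1 as deposited, that of SNF7. After KOH 3 were called with scaled arrays and 2 to 8 with 1 array left out. The replicate block, with the experiment number as a term, called 6 of 8 pathway rows after KOH, where YGR122W passed and the YGL045W row of RIM8 was not tested. The labels do not say that the numbers pair samples, and the differences between experiments 1 and 2 correlated at -0.092 between comparisons. With the dye term the fit took 1 spread for all rows, so its small p-values rest on that. Centring moved alkali experiment 1 by 0.12 and split the alkali calls into 1419 higher and 1345 lower.

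Signs turned for members that were not called and, as deposited, for CSR2, which is no member and was called (1.27, -0.64 as deposited). In the mutant, centring gave SMP1 0.010, RIM101 0.004, DFG16 0.015 and RIM20 0.043. As deposited, the mutant columns hold a mean of -0.35 at the name of RIM21 and 0.28 at that of RIM20. Given the displacement described above, these values and that of CSR2 as deposited belong to other rows. With 1 array left out, SMP1 ranged from -0.61 to 0.53, YGR122W from -0.60 to 0.29, RIM21 from -0.26 to 0.50, DFG16 from -0.098 to 0.031 and RIM20 from -0.18 to 0.17, and after KOH RIM13 from -0.04 to 0.15. In these fits the lone array is assumed to vary like the arrays of the other comparison, which alone give the spread. Over the alternatives after KOH, members that were called had 7 results that no longer passed, and members that were not called had 13 that did. These results count 1 fit more than once, since leaving out either mutant array gives the same alkali fit as the spread from the alkali arrays alone. How far each spot lay above background is not known.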

Other observations

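The nearest annotated genes on the chromosome were read beside the members after their values had been seen. Next to the 5 members that rose after KOH, 5 neighbours were measured on both alkali arrays, and none of these lay beside DFG16. Of them 0 rose, 3 fell and 2 did not pass (limma), where 29.1% of all rows rose and 32.7% fell. The ribosomal protein gene RPS6B beside SMP1 fell (-1.72 and -1.57), as did MOD5 (-1.03 and -1.10) and CAF20 (-1.60 and -1.43) on the sides of RIM20. RNA15 beside RIM8 had -0.05 and 0.08, and YHL026C beside RIM101 had -0.63 and -0.39. Next to the 3 members that did not pass, 3 neighbours were measured, and these rose: NUP53 and YMR155W beside RIM13, and MSB3 beside RIM21. No neighbour of YGR122W was among them. In the mutant, WSC4, the other neighbour of RIM101, had -2.18 and -2.22 (limma, adjusted p = 0.00464), where RIM101 had -0.011 and -0.078.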
